A study of Mus musculus with 20 samples.

Results

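miR-202 is a microRNA cut from a single hairpin. Both of its arms were followed here in testes of newborn and young mice and in spermatocyte fractions of adult mice. They were read from the 2 rows of a microRNA family table that carry their seeds. The seed is bases 2 to 8 of a mature microRNA, and the deposited small RNA table gives a read count for each of 4940 seeds of 7 bases. The miR-202-5p row was found by its seed and belongs to no other RefSeq mouse microRNA, whereas the seed of miR-202-3p is shared with let-7j. Both rows passed the filter on low counts that left 745 rows for testing.

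MicroRNAs are cut from hairpin transcripts by Drosha and Dicer, and 1 arm of the duplex is usually kept in an Argonaute protein, where its seed pairs with sites in target mRNAs and lowers their stability or translation. miR-202 is known for its enrichment in the gonads. In the mouse fetal testis it is made in Sertoli cells, the somatic nurse cells of the tubule, under the transcription factor SOX9, and it has also been studied in spermatogonial stem cells and spermatocytes.

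All animals were wild type mice of the C57Bl/6J strain. Small RNA and RNA libraries were made from whole testes at day 1, day 3 and day 7 after birth and from 2 fractions of adult mice aged 70 to 80 days, mixed leptotene and zygotene spermatocytes and pachytene spermatocytes, enriched by sedimentation at unit gravity. Each of these 5 stages had 2 biological replicates per assay, in 10 libraries per assay. Whole testis holds Sertoli, Leydig, peritubular and germ cells together, the adult fractions were judged for purity by microscopy only, and age and tissue preparation changed together between day 7 and the fractions.

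The sequences below, from RefSeq (GRCm38.p6), show both arms, the hairpin that holds them and 3 other microRNAs: let-7a-5p, whose seed is a single base from that of the 3p arm, let-7j, which has the seed of the 3p arm, and miR-672-5p, whose seed is another single-base neighbour of the let-7 seed. Capitals mark the seed in the mature sequences and both mature arms in the hairpin.
miR-202-5p: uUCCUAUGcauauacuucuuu
miR-202-3p: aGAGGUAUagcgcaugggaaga
Mir202: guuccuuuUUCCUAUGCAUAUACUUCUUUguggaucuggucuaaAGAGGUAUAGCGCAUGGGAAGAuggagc
let-7a-5p: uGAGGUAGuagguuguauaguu
let-7j: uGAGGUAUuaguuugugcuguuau
miR-672-5p: uGAGGUUGguguacuguguguga

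The hairpin lies at chr7:139957689-139957760 of GRCm38.p6, on the minus strand, and is 72 bases long. miR-202-5p is 21 bases and takes positions 9 to 29 of it, and miR-202-3p is 22 bases and takes positions 45 to 66. The hairpin lies inside the span of the long noncoding RNA gene Gm16201, which the RNA table does not list, and the next microRNA gene, Mir7686, lies 66 bases away. The seed rows of that neighbour held 27 reads for miR-7686-5p and 316 reads for miR-7686-3p over all 10 libraries, against 150798 reads for miR-202-5p and 5647 for the miR-202-3p row. The seed of miR-202-3p differs from the let-7 seed by the single substitution G8U, with positions counted from 1 at the 5′ end of the mature microRNA. Outside the seed the 2 sequences are less alike, since 14 of the 22 bases differ between let-7a-5p and miR-202-3p in all.

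The small RNA libraries held between 112967 and 11061273 reads in the seed rows. The 6 testis libraries had at least 1421742 and the 4 spermatocyte libraries at most 820461, so values in the spermatocyte fractions rest on far fewer reads. Replicate 2 of both fractions was the shallowest, with 119746 reads for leptotene/zygotene and 112967 for pachytene. Levels are CPM, the reads of a row per 1000000 reads of its library after TMM scaling, a method that assumes most rows do not change. In the RNA libraries, 7 spermatocyte markers summed to 10850 to 12233 CPM in leptotene/zygotene and 7435 to 8969 CPM in pachytene cells, against 72.4 to 80.1 CPM on day 7. Ldhc and Pgk2 led the leptotene/zygotene sum, with means of 5706 and 5020 CPM, against 4874 and 1339 CPM in pachytene. Syce1 was also higher there (539 against 454 CPM). Sycp3 (50.1 against 168 CPM), Sycp1 (79.7 against 123), Hormad1 (18.5 against 64.2) and Piwil1 (129 against 1180) had lower means in leptotene/zygotene than in pachytene. The fraction labelled leptotene/zygotene also held 5 spermatid genes (Prm1, Prm2, Tnp1, Tnp2 and Acrv1) at a summed 41721 to 52901 CPM, against 3596 to 5259 CPM in the pachytene fraction and 0.496 to 0.553 CPM on day 7. The RNA libraries of both fractions thus carried spermatid transcripts, at higher levels in leptotene/zygotene than in pachytene. Below, the names leptotene/zygotene and pachytene cells or spermatocytes follow the labels of the fractions, not their markers. Whether cells of these later stages were also in the small RNA libraries of the fractions was not tested.

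miR-202-5p was an abundant microRNA of the newborn testis and a minor one of the spermatocyte fractions. The day 1 testes had 3402 and 3573 CPM, the day 3 testes 3153 and 3306 CPM, and the day 7 testes 6746 and 7793 CPM. Leptotene/zygotene spermatocytes had 958 and 304 CPM, and pachytene spermatocytes 558 and 673 CPM. All 6 testis libraries lay above all 4 spermatocyte libraries, and both day 7 libraries lay above the other 4 testis libraries. The row ranked between 29 and 31 among all seed rows on days 1 and 3, 21 in both day 7 libraries, and between 55 and 72 in the fractions. As a share of the reads in the table it was 0.665% and 0.778% on day 7, against 0.225% to 0.299% in the 4 earlier libraries. In the fractions the share was 0.0509% to 0.112%, which for the second leptotene/zygotene library is 61 reads.

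The miR-202-3p row was much lower, and its mean was also highest on day 7 and lower in both fractions than in testis. It averaged 153 ± 26.8 CPM on day 1, 168 ± 16.6 CPM on day 3 and 215 ± 10.2 CPM on day 7 (SD, n = 2 each). The leptotene/zygotene libraries had 46.0 and 0 CPM. In the library without a read, 3 counts, a rough upper limit for a count of 0, would be 15.0 CPM. The pachytene libraries had 34.9 and 21.2 CPM, from 12 and 4 reads. The testis libraries, at 162 to 1786 reads, lay above all 4 spermatocyte libraries on the CPM scale, while the 2 fractions overlapped each other.

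**Figure D1:**
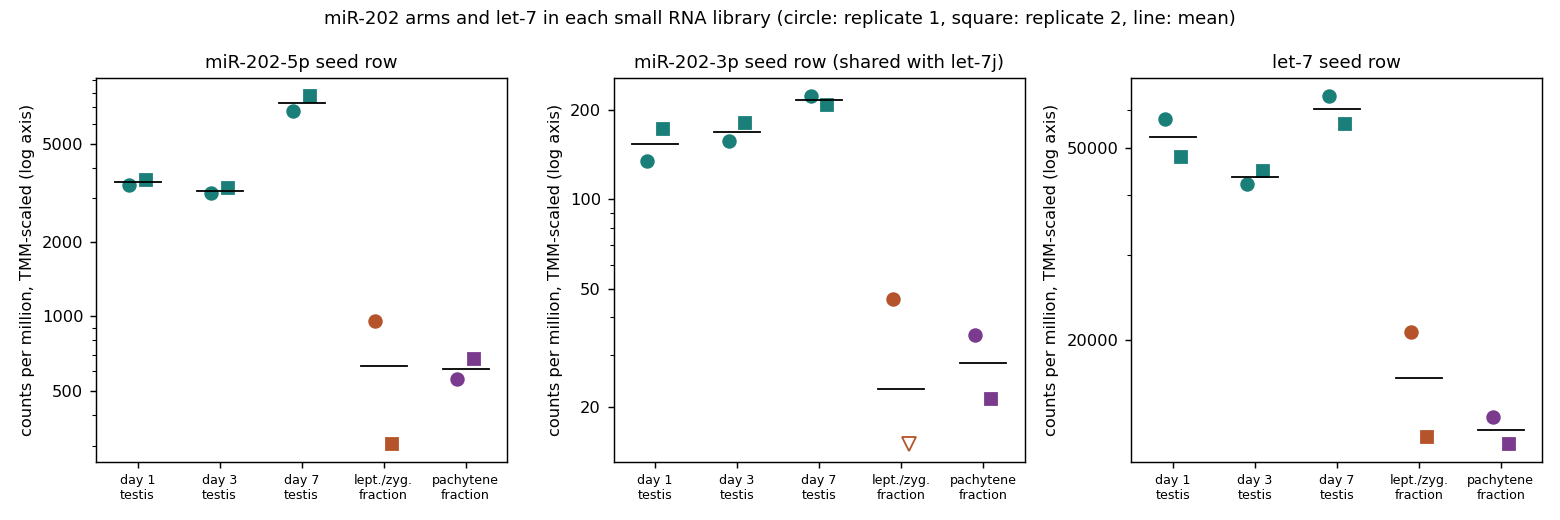
TMM-scaled CPM (log axis) of the miR-202-5p, miR-202-3p and let-7 seed rows in each of the 10 small RNA libraries, by stage; filled symbols are libraries, lines are means of 2 libraries, and the open triangle marks the CPM of 3 counts where the library had no read. miR-202-5p sits at 6746 and 7793 CPM on day 7 and at 304 to 958 CPM in the 4 spermatocyte libraries.

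From day 1 to day 3 neither arm changed detectably. miR-202-5p averaged 3229 ± 108 CPM on day 3 and 3487 ± 121 CPM on day 1 (SD, n = 2 each), a log2 fold change of −0.11 ± 0.50 (SE; adjusted p = 0.975, edgeR quasi-likelihood test over all rows). The 95% interval of that change ran from −1.21 to 0.99, so a change of up to about that size in either direction was not detectable. miR-202-3p differed by 0.14 ± 0.58 (adjusted p = 0.975, edgeR). No row passed in this comparison (0.0% of 745) with edgeR, although 144 lay under 0.05 before adjustment, and DESeq2 called 83.

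miR-202-5p was higher in both day 7 libraries than in both day 3 libraries, but it did not pass in the fit of all 10 libraries. It also did not pass in 7 of 10 other settings, and it passed in the rest of those. It averaged 7270 ± 740 CPM on day 7 and 3229 ± 108 CPM on day 3 (SD, n = 2 each), which is 2.25-fold higher on day 7. With all 10 libraries in 1 fit the log2 fold change was 1.17 ± 0.51, with an unadjusted p of 0.0416 and an adjusted p of 0.255 (edgeR), and it did not pass. When only the 6 testis libraries were fitted it was 1.20 with an adjusted p of 0.00576, in a fit that called 99 rows. It was also past 0.05 with only the 2 stages compared (1.19, adjusted p = 0.00762), with DESeq2 (0.85, adjusted p = 0.0418) and without the second leptotene/zygotene library (1.22, adjusted p = 0.0473). Over all rows 4.16% passed in the 10-library fit and 3.89% passed as higher, and miR-202-5p had the 88th highest fold change of 745. The split of these calls depended on the scaling, with 29 rows higher and 2 lower under TMM, 30 and 39 with median-ratio factors and 29 and 79 when the 3 most abundant rows were left out of the scaling. The median of all rows lay between −0.50 and 0.14 under the 6 settings, and relative to it miR-202-5p stood 1.18 to 1.33 higher on the log2 scale.

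Against day 1 the change of miR-202-5p to day 7 was similar, and it again did not pass in 7 of 10 other settings. miR-202-5p averaged 7270 ± 740 CPM on day 7 and 3487 ± 121 CPM on day 1, with a log2 fold change of 1.06 ± 0.51 and an adjusted p of 0.179 (edgeR), where 14.0% of rows passed and 8.32% passed as higher. That was 62 rows higher and 42 lower, against 105 and 24 with plain library sizes, 54 and 105 with median-ratio factors, and 58 and 68 with the 3 most abundant rows left out of the scaling. The adjusted p was 0.00448 in the fit of the 6 testis libraries (log2 fold change 1.10), 0.000655 with only the 2 stages compared (1.10), 0.0449 with plain library sizes (1.38) and 0.0324 without the second leptotene/zygotene library (1.11). miR-202-3p was 0.36 ± 0.58 higher on day 7 than on day 3 (adjusted p = 0.823, edgeR) and 0.49 ± 0.58 higher than on day 1 (adjusted p = 0.622, edgeR), and it passed in none of the fits run. The difference between the arms was not tested.

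In the fraction labelled leptotene/zygotene both arms of miR-202 were much lower than in the day 7 testis. miR-202-5p averaged 631 ± 463 CPM in leptotene/zygotene cells and 7270 ± 740 CPM in day 7 testes (SD, n = 2 each), 11.4-fold lower, with a log2 fold change of −3.51 ± 0.56 (adjusted p = 0.000356, edgeR) and a 95% interval of −4.73 to −2.29. miR-202-3p fell by 2.86 ± 0.68 on the log2 scale (adjusted p = 0.00404, edgeR), which is 7.27-fold lower in leptotene/zygotene cells. The let-7 row, 1 base from the 3p seed, averaged 16654 ± 5795 CPM in leptotene/zygotene cells and 60163 ± 5627 CPM on day 7, a log2 fold change of −1.85 ± 0.40 (adjusted p = 0.00244, edgeR).

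This step changed a large part of the small RNA table, so a fall past the test did not set miR-202 apart. Over all rows 62.1% passed and 37.3% passed as lower, and the median row had a log2 fold change of −0.91. Relative to that median miR-202-5p stood at −2.60 on the log2 scale (−2.61 to −2.53 over the scalings), but it ranked only 161st from the lowest of 745 rows. The replicates of the fraction also disagreed more than those of testis: the 2 leptotene/zygotene libraries differed 3.15-fold in miR-202-5p, and the log2 difference between replicates had an SD over rows of 1.87 in this fraction, against 0.413 to 0.758 in the 3 testis stages. Without the first leptotene/zygotene library the log2 fold change of miR-202-5p was −3.73 (adjusted p = 0.000433, edgeR), and without the second it was −3.19 (adjusted p = 0.000238, edgeR). For miR-202-3p the value without the second was −2.50 (adjusted p = 0.000852, edgeR), whereas without the first no read of that row remained in the fraction and no fold is given.

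Neither arm of miR-202 differed detectably between the pachytene and leptotene/zygotene fractions. miR-202-5p averaged 616 ± 81.5 CPM in pachytene and 631 ± 463 CPM in leptotene/zygotene cells (SD, n = 2 each), with a log2 fold change of −0.05 ± 0.51 (adjusted p = 1, edgeR) and a 95% interval of −1.18 to 1.07. Both pachytene values lay between the 2 leptotene/zygotene values, and only 0.403% of rows passed. For miR-202-3p the log2 fold change was −0.02 ± 0.80, with a 95% interval of −1.77 to 1.73 and at most 33 reads per library. Against day 7, miR-202-5p fell by 3.56 ± 0.56 on the log2 scale (adjusted p = 0.00031, edgeR), 11.8-fold lower in pachytene cells, and miR-202-3p fell by 2.88 ± 0.73 (adjusted p = 0.00596, edgeR), 7.37-fold lower, where 53.7% of rows passed and 33.2% passed as lower. Of those rows 153 were higher and 247 lower under TMM, against 186 and 189 with median-ratio factors. Both comparisons of a fraction use the same day 7 libraries.

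**Figure D2:**
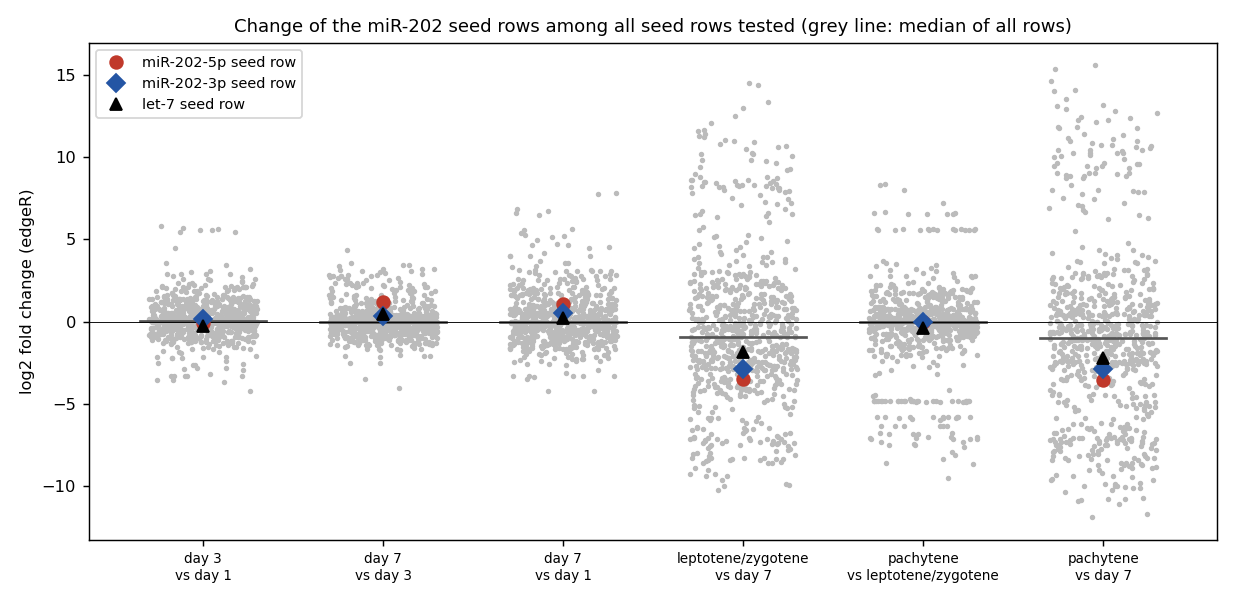
Log2 fold change (edgeR) of the miR-202-5p, miR-202-3p and let-7 seed rows in 6 comparisons of stages, among all 745 seed rows tested (grey points; horizontal offset is random), with the later or fraction stage over the earlier one. miR-202-5p lies at 1.17 for day 7 against day 3 and at −3.51 and −3.56 for the fractions against day 7, where the median of all rows (grey lines) is itself at −0.91 and −0.98.

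The 5p arm made up nearly all miR-202 reads at every stage. Its share of the reads of both seed rows was 96.2% and 95.4% in day 1 testes, 95.3% and 94.8% in day 3 testes, and 96.8% and 97.4% in day 7 testes. It was 95.4% and 100% in the leptotene/zygotene libraries, and 94.1% and 96.9% in the pachytene libraries. Both day 7 shares lay above the 4 earlier testis shares, and their exact 95% binomial intervals, 96.6% to 97.0% and 97.3% to 97.5%, lay above those of day 3, which reached 95.5% and 95.1%. The interval of the first day 1 library, 95.6% to 96.8%, overlapped that of the first day 7 library. Such intervals cover counting error only. The share of 100% is 61 of 61 reads, with an interval of 94.1% to 100%.

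Arm use did not differ detectably between the fractions and whole testis. The 5p share averaged 96.6 ± 2.53% in the 4 spermatocyte libraries and 96.0 ± 0.988% in the 6 testis libraries, a difference of 0.633 percentage points (two-sided exact permutation test, p = 0.619). Without the second leptotene/zygotene library the sign turned, to −0.493 percentage points (exact permutation p = 0.571). The shares pool stages within each kind of sample. Since let-7j reads would count towards the 3p row, the 5p share is a lower limit if any were present.

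Reads were also counted in the row 1 base upstream of the 5p seed. The row that equals bases 1 to 7 of miR-202-5p, a window that starts 1 base upstream and that no other RefSeq mouse microRNA has as its bases 2 to 8 or 1 to 7, held 7796 reads. A microRNA whose 5′ end lies 1 base upstream of the RefSeq end would be counted there. The assignment of reads to a seed is not given, so a second start site was not tested. These reads were 4.46% to 6.24% of both 5p rows in the testis libraries and 1.61% to 8.40% in the spermatocyte libraries, where they rest on 1 to 63 reads. Spermatocyte libraries averaged 4.57 ± 2.83% and testis libraries 4.98 ± 0.669% (exact permutation p = 0.705, n = 4 and 6). The window 1 base downstream held 22 reads in all, at most 11 in a library.

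The other single-base neighbours of the let-7 seed were counted, since a misread let-7 read would fall in such a row. let-7 had 1546105 reads, and 8 of the 21 possible neighbours are listed. Of these, 3 are seeds of RefSeq microRNAs, among them that of miR-377-5p and miR-672-5p with 6940 reads and the miR-202-3p row with 5647. The other 5 held 1 to 80 reads each, at most 5.17 per 100000 let-7 reads. The 2 other last-base variants of the let-7 seed are not listed. For miR-202-5p, the 4 listed neighbours that match no RefSeq seed held 47 reads in all, at most 15.9 per 100000 miR-202-5p reads. How many reads of the 3p row came from let-7 or let-7j was not tested.

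The 3p row had a lower mean ratio to let-7 in the spermatocyte libraries than in the testis libraries. It stood at 2.22 and 0 reads per 1000 let-7 reads in leptotene/zygotene and 2.53 and 1.75 in pachytene libraries, against 2.33 and 3.58 in day 1 testes, 3.73 and 4.01 in day 3 testes and 3.47 and 3.71 in day 7 testes. The spermatocyte libraries averaged 1.62 ± 1.13 (SD, n = 4) and the testis libraries 3.47 ± 0.588 (SD, n = 6), with an exact permutation p of 0.00952 and 0.0286 after adjustment over the 3 ratios compared in this way. The groups overlapped only through the first day 1 library and the first pachytene library. With any 1 library left out the spermatocyte mean stayed lower and the exact permutation p was 0.00794 to 0.0238. This ratio was chosen for testing after its values had been seen, and the adjustment does not cover that choice. The spermatocyte ratios rest on 33 and 0 reads of the 3p row in leptotene/zygotene and 12 and 4 in pachytene. In that order their exact 95% binomial intervals were 1.53 to 3.11, 0 to 1.46, 1.31 to 4.41 and 0.477 to 4.47. All but the second included 2.33, the value of the first day 1 library.

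**Figure D3:**
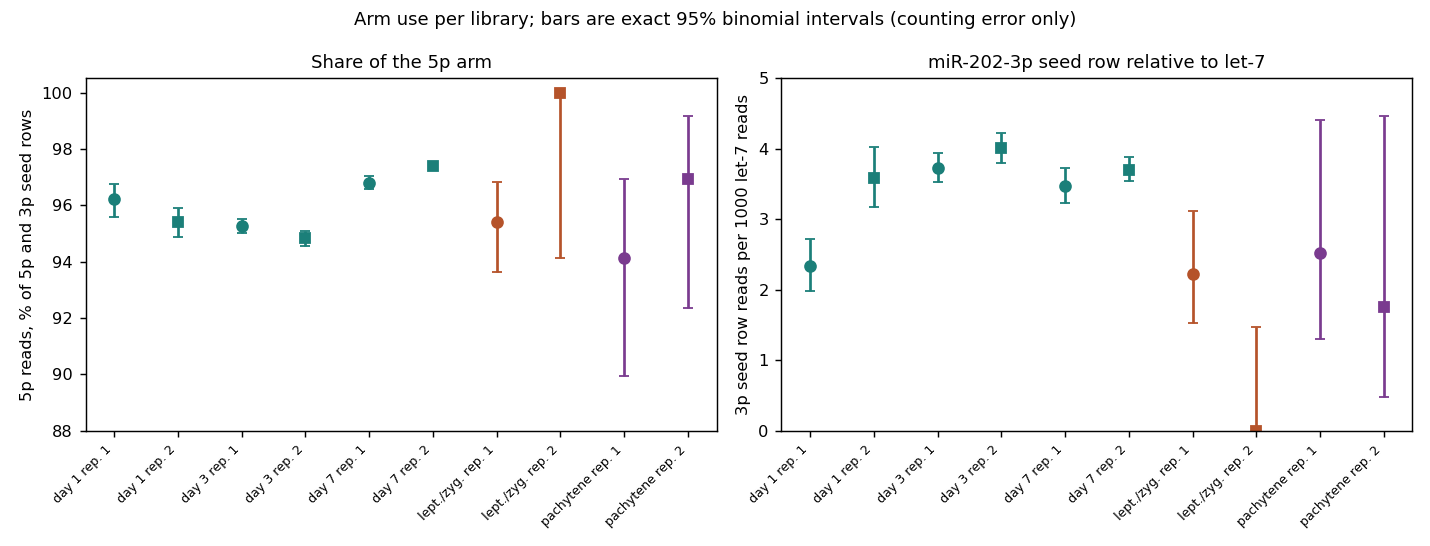
Left, reads of the miR-202-5p row as a percentage of both miR-202 seed rows; right, reads of the miR-202-3p row per 1000 let-7 reads, for each small RNA library, with exact 95% binomial intervals that cover counting error only. The 5p share lies between 94.1% and 100% in every library, and the ratio to let-7 is 2.33 to 4.01 in testis libraries and 0 to 2.53 in spermatocyte libraries.

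Rows with profiles like that of miR-202 were ranked by the correlation of log2 CPM among 174 rows with a mean of at least 100 CPM. These correlations are descriptions, since points share libraries, depth and scaling. Over all 10 libraries the 5 rows most like miR-202-5p were an unnamed seed GGUAGAU (r = 0.98), let-7 (0.97), the 1-base upstream window of miR-202-5p itself (0.96), the seed of miR-28a-5p and miR-708-5p (0.95) and that of miR-196a-5p and miR-196b-5p (0.94). The miR-202-3p row came 53rd at 0.87 by Pearson's r and 3rd at 0.92 by Spearman's rho, where the leptotene/zygotene library without a 3p read weighs less. The 5 rows most like miR-202-3p were miR-450a-5p (0.99), miR-125b-1-3p (0.96), the miR-221-3p and miR-222-3p seed (0.96), the upstream window of miR-202-5p (0.95) and the miR-200b-3p, miR-200c-3p and miR-429-3p seed (0.93).

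Within the 6 testis libraries alone a different set ranked first. miR-202-5p was most like the miR-17-5p and miR-20a-5p seed (r = 0.99), miR-465d-3p (0.99), the miR-465a-3p to miR-465c-3p seed (0.98), miR-881-3p (0.97) and the miR-883a-3p and miR-883b-3p seed (0.97). Of these, miR-465, miR-881 and miR-883 are encoded on the X chromosome, and let-7 came 33rd with 0.72. Their levels went the other way in the fractions: miR-881-3p averaged 444, 258, 1779, 9073 and 7314 CPM from day 1 to pachytene, against 3487, 3229, 7270, 631 and 616 CPM for miR-202-5p. For miR-202-3p the testis set was miR-92a-1-5p (0.99), miR-470-5p (0.93), miR-871-3p (0.91), the miR-743a-3p and miR-743b-3p seed (0.91) and the miR-883a-3p and miR-883b-3p seed (0.91).

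The RNA libraries of the same stages gave the hairpin itself almost no reads. The row of Mir202 held 0 and 2 counts in day 1 testes, 19 and 4 in day 3 testes, 5 and 13 in day 7 testes, and 0 in all 4 spermatocyte libraries, so it fell under the filter and was not tested. Among 6133551 and 22181395 gene reads at the extremes of the testis libraries, these counts say little about the primary transcript.

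Genes of Sertoli cells fell with miR-202 in the step to the leptotene/zygotene fraction, as did those of Leydig and peritubular cells. No Sertoli gene passed in the step to day 7 in the fit of all 10 libraries. SOX9, which drives miR-202 in fetal Sertoli cells, had 219 and 248 CPM of Sox9 on day 7, against 156 and 125 CPM on day 3, a log2 fold change of 0.73 ± 0.65 (adjusted p = 0.694, edgeR), and 0.74 with an adjusted p of 0.0221 in a fit of the testis libraries. It had 6.81 and 0.300 CPM in leptotene/zygotene cells, the second from 3 counts, so that it fell by 6.81 ± 0.94 on the log2 scale relative to day 7 (adjusted p = 0.0001, edgeR). Of the 18 Sertoli genes listed, 17 were in the table (Rhox5 was not). From day 3 to day 7 none of the 17 passed with edgeR, although 5 lay under 0.05 before adjustment, DESeq2 called 2 and a fit of the testis libraries called 7. The 5 genes under 0.05 before adjustment went both ways. Cldn11 (log2 fold change 2.07), Dmrt1 (1.10) and Rhox8 (0.81) were higher on day 7, and Amh (−1.18) and Inha (−0.98) were lower. Amh, which was lower on day 7, passed with DESeq2 (−1.26, adjusted p = 0.0120) and in the fit of the testis libraries (−1.17, adjusted p = 0.0210, edgeR). The list had a median log2 fold change of 0.17, against −0.02 over all 16872 genes tested, of which 1.49% passed.

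All 17 Sertoli genes fell between day 7 testis and leptotene/zygotene cells, with a median log2 fold change of −5.90, where 42.0% of all genes fell and the median was −0.31. Amh, the hormone that removes the Müllerian duct, had a log2 fold change of −9.23 ± 0.57 and Inhbb, an inhibin subunit, of −6.85 ± 0.54. Gata4, a gonadal transcription factor, had −6.80 ± 0.60 and Nr5a1, the nuclear receptor SF-1, −6.29 ± 0.49 (adjusted p = 7.65e-07 to 5.05e-06 for these 4, edgeR). The 17 genes summed to 72.1 to 190 CPM in leptotene/zygotene and 266 to 377 CPM in pachytene libraries, against 5470 to 5605 CPM on day 7, and none was at 0 in both libraries of a stage. All 6 Leydig genes fell too (median log2 fold change −5.51). They summed to 5.61 to 19.9 CPM in leptotene/zygotene cells and 366 to 548 CPM on day 7. All 4 peritubular genes fell (median −3.60), and they summed to 35.1 to 84.1 CPM in leptotene/zygotene cells and 805 to 828 CPM on day 7. Of 7 spermatogonial genes (median −3.35) 5 fell and 1, Dmrtb1, rose. Some genes of the Sertoli list are also used by other testis cells, such as Dmrt1 by spermatogonia. The part of the cell makeup in the fall of miR-202 was not tested, and in bulk samples fewer cells of a type and less RNA per cell cannot be told apart.

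Genes reported elsewhere as miR-202 targets did not move in 1 direction. In the mouse, Rbfox2 and Cpsf6 (RNA-processing factors), Stra8 and Dmrtb1 (regulators of entry into meiosis) and Espl1 (separase, which cleaves cohesin) have been reported, and in human Sertoli cells LRP6 and CCND1. The arm for which each gene was reported was not taken into account. Both miR-202 rows had their highest mean on day 7, but neither passed against day 3 in the fit of all 10 libraries. The log2 fold change was 1.17 ± 0.51 for miR-202-5p (adjusted p = 0.255, edgeR) and 0.36 ± 0.58 for miR-202-3p (adjusted p = 0.823, edgeR). From day 3 to day 7, 2 of the 7 genes rose, with 0.931% of all genes called higher. Stra8 had 52.1 and 37.6 CPM on day 7, against 1.63 and 3.25 CPM on day 3, and rose by 4.24 ± 0.46 on the log2 scale (adjusted p = 0.0092, edgeR). Dmrtb1 had 23.1 and 16.1 CPM on day 7, against 0.466 and 2.11 CPM on day 3, and rose by 4.09 ± 0.59 (adjusted p = 0.0167, edgeR). Both calls rested on both day 7 libraries: without 1 or the other the adjusted p was 0.0989 to 0.137 for Stra8 and 0.119 to 0.173 for Dmrtb1 (edgeR), and for Dmrtb1 it was 0.0502 without the second day 1 library.

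Some germ cell genes rose over the same days. Of 7 spermatogonial genes, a list that also holds Dmrtb1, 3 rose from day 3 to day 7, and the sum of the 7 was 270 to 306 CPM on day 7 and 72.3 to 110 CPM on day 3. Of 7 spermatocyte genes 3 rose (Sycp3, Syce1 and Piwil1), and 0.931% of all genes did so. Ldhc and Pgk2, enzymes of late spermatocytes, had log2 fold changes of −3.82 (unadjusted p = 0.00547, adjusted p = 0.12, edgeR) and −2.50 (adjusted p = 0.549, edgeR), from 4 and 4 counts of Ldhc and 1 and 4 of Pgk2 on day 7, against 21 and 81 of Ldhc and 0 and 27 of Pgk2 on day 3. Rbfox2 had a log2 fold change of −0.40 ± 0.26 from day 3 to day 7, Cpsf6 of 0.02 ± 0.24, Espl1 of 0.69 ± 0.23, Lrp6 of 0.09 ± 0.55 and Ccnd1 of 0.60 ± 0.54 (adjusted p = 0.194 to 1, edgeR). Espl1 passed when only the testis libraries were fitted (0.70, adjusted p = 0.0362). Cpsf6 and Lrp6 were close enough to 0 for their sign to change between settings.

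On day 7 miR-202-5p was 11.4-fold and the miR-202-3p row 7.27-fold higher than in leptotene/zygotene cells. Relative to day 7, 5 of the 7 reported targets fell in leptotene/zygotene cells and 2 rose. Of all genes 78.5% passed in this step, 42.0% lower and 36.5% higher, which is 7082 genes lower and 6163 higher with a median of −0.31 under TMM, against 9928 and 4183 with a median of −1.71 with plain library sizes. Rbfox2 had 16.5 and 10.7 CPM in leptotene/zygotene cells, against 141 and 142 CPM on day 7, and fell by 3.43 ± 0.30 on the log2 scale. The log2 fold change was −2.75 ± 0.26 for Cpsf6, −2.66 ± 0.44 for Stra8, −3.28 ± 0.63 for Lrp6 and −2.50 ± 0.61 for Ccnd1 (largest adjusted p of these 5 genes 0.00383, edgeR). Dmrtb1 had 1330 and 2038 CPM in leptotene/zygotene cells, against 23.1 and 16.1 CPM on day 7, a rise of 6.42 ± 0.60 on the log2 scale. Espl1 had 241 and 232 CPM in leptotene/zygotene cells, against 121 and 96.6 CPM on day 7, and rose by 1.12 ± 0.23 (adjusted p = 0.00146, edgeR), but with plain library sizes the value was −0.26 (adjusted p = 0.305, edgeR). Rec8, the meiotic cohesin that separase cleaves, rose by 3.30 ± 0.59 (adjusted p = 0.00055, edgeR). In pachytene cells Dmrtb1 averaged 1634 ± 110 CPM, Espl1 293 ± 31.4 CPM, Rbfox2 16.3 ± 3.74 CPM and Stra8 5.86 ± 2.64 CPM (SD, n = 2 each).

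**Figure D4:**
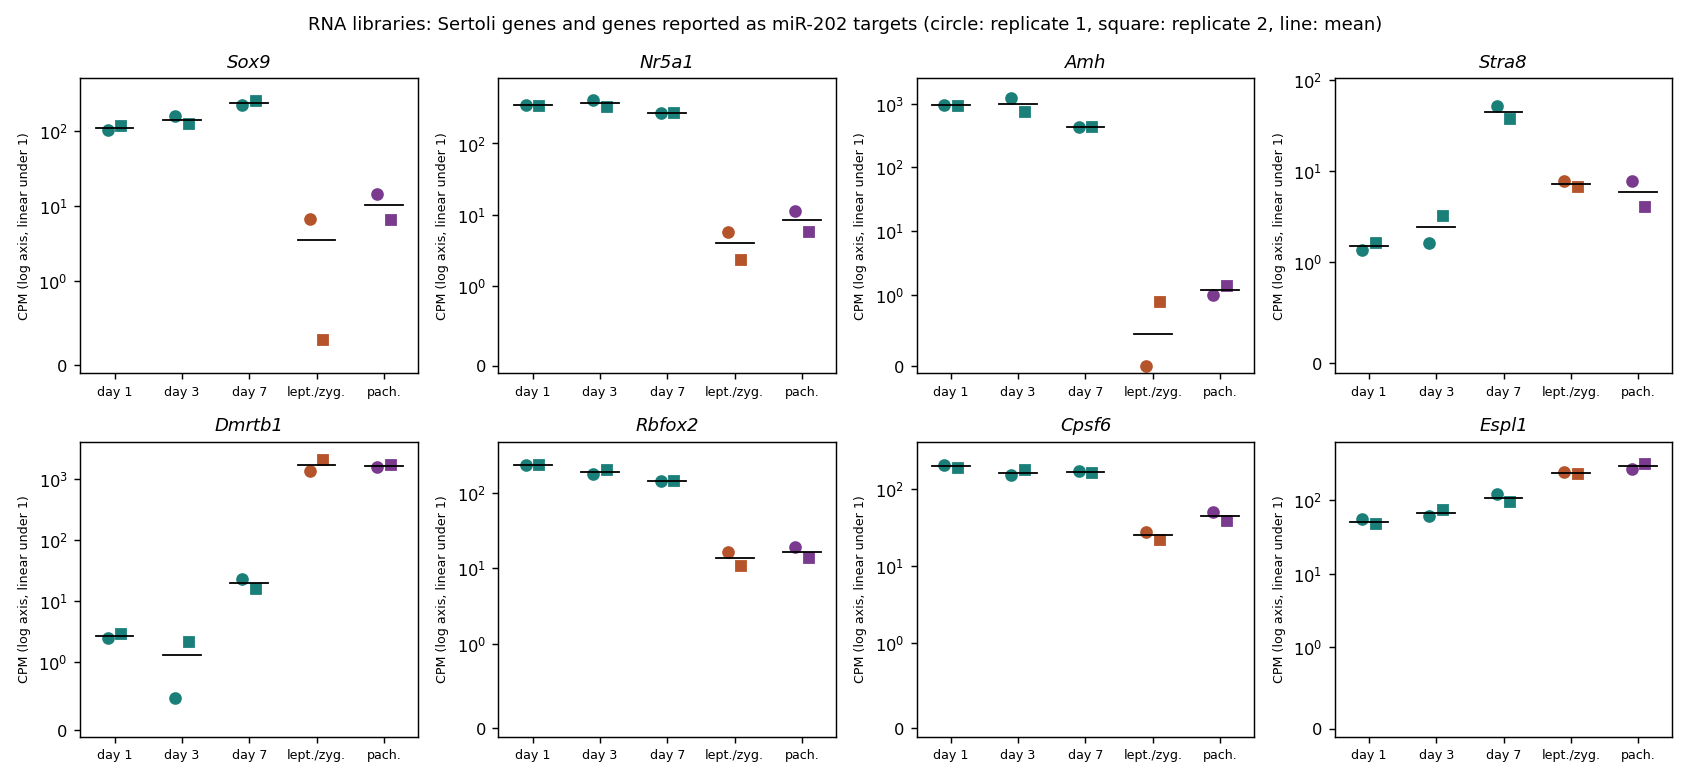
TMM-scaled CPM (log axis, linear under 1) of 3 Sertoli genes (Sox9, Nr5a1, Amh) and of 5 genes reported as miR-202 targets in the mouse (Stra8, Dmrtb1, Rbfox2, Cpsf6, Espl1) in each of the 10 RNA libraries; symbols are libraries and lines are means of 2. The Sertoli genes, Rbfox2 and Cpsf6 are lower in both fractions than in testis, Dmrtb1 and Espl1 are higher, and Stra8 is highest on day 7 at 52.1 and 37.6 CPM.

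The enzymes that make and carry microRNAs were counted in the same RNA libraries, with the Argonaute genes under their older names Eif2c1 to Eif2c4. None of the 10 passed from day 3 to day 7 with edgeR, none lay under 0.05 before adjustment and DESeq2 called 0, although Eif2c2 was 2.27 higher on the log2 scale without the second day 3 library (adjusted p = 0.0462, edgeR). Between day 7 testis and leptotene/zygotene cells 6 of the 10 fell and 2 rose, where 42.0% of all genes fell and 36.5% rose. Dicer1, the RNase that cuts the hairpin loop, fell by 3.41 ± 0.62 on the log2 scale (adjusted p = 0.000585, edgeR), and the log2 fold change was −2.93 ± 0.53 for Eif2c1 and −2.76 ± 0.69 for Eif2c2, which missed the threshold without the second leptotene/zygotene library (−2.37, adjusted p = 0.0508, edgeR). Tarbp2, a partner of Dicer, rose by 2.90 ± 0.29 (adjusted p = 1.24e-05, edgeR), and Eif2c4 was higher by 1.91 ± 0.29 with an adjusted p of 0.000181 (edgeR), but by 0.55 with an adjusted p of 0.125 (edgeR) with plain library sizes. The genes of this list thus went both ways in that step. Whether they had any part in the fall of let-7 and both miR-202 arms was not tested.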

How the data were processed

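The authors deposited a count table per assay, and its values are raw counts. The genome was mm9, and the tools named are HTSeq 0.6.1, edgeR 3.6.8, Bowtie 0.12.7 and BWA 0.7.8, per the submitters' processing notes. Neither the assignment of reads to a seed nor strand use in gene counting is given in the sources used here. The 5 HTSeq summary categories, 44.7% to 64.5% of RNA reads, were left out.

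Seeds were matched to bases 2 to 8 of RefSeq mature microRNAs. Of 4940 rows, 1127 matched and 1174 held no count. After filterByExpr (minimum count 10), 745 rows and 16872 genes were fitted with edgeR 4.0.16 in R 4.3.3, with TMM scaling and all 10 libraries of an assay in 1 fit. The two-sided quasi-likelihood F test was adjusted by Benjamini-Hochberg over all rows at 0.05. Standard errors were taken from the log2 fold change and its F statistic. DESeq2 1.42.0 and other edgeR settings served as alternatives, and limma 3.58.1 was loaded alongside edgeR. Arm shares have exact (Clopper-Pearson) 95% intervals and an exact permutation test with a smallest possible p of 0.00476. Named were both arms, their 1-base shifts, let-7 and its single-base neighbours, the 5 most similar rows per arm, and fixed gene lists, with the 4 largest changes per list. The members and lists were chosen with earlier results of these data known. The main fit was run on simulated counts for day 7 against day 3, with 1 common spread for all rows. The outcome is not reported here, and the real replicates differed in spread between stages. No replicate pair agreed within sampling noise.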

Additional observations from a re-analysis of the deposited data

Results flagged for a closer look

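Among the 6 testis libraries pooled over stages, 1 library stood far from the others in each of 2 measures. The first day 1 library had 2.33 reads of the miR-202-3p row per 1000 let-7 reads, where the nearest testis library had 3.47. The first day 3 library had 6.24% of its miR-202-5p reads in the window 1 base upstream, where the nearest had 5.06%. The stages hold 2 libraries each, and the 6 libraries compared span 3 stages. Of the 6 sets of values looked at, chance sets a library apart in about 5%.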

How the results depend on the processing

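Of 1179 recomputed values, 1061 kept their direction and side of the threshold, or moved little. The falls of miR-202-5p and miR-202-3p from day 7 to both fractions passed in every fit run. For miR-202-5p from day 1 to day 3 the log2 change, −0.11, turned to 0.17 with scaling without the 3 most abundant rows and to 0.16 with no filter, and ranged from −0.14 to 0.12 with 1 library left out. From day 3 to day 7 it passed with DESeq2 (0.85), with the stages compared only (1.19) and in testis libraries only (1.20), and ranged from 0.87 to 1.32 with 1 library left out. From day 1 to day 7 it passed with plain library sizes (1.38), with the stages compared only (1.10) and in testis libraries only (1.10), and ranged from 0.84 to 1.24 with 1 library left out. Between pachytene and leptotene/zygotene it was 0.062 with median-ratio factors, 0.30 with plain library sizes and 0.037 with DESeq2, and ranged from −0.61 to 0.42 with 1 library left out.

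For miR-202-3p from day 3 to day 7 scaling without the 3 most abundant rows gave −0.14, and leaving out 1 library gave −0.0088 to 0.52. Between pachytene and leptotene/zygotene it was 0.085 with median-ratio factors, 0.25 with plain library sizes, 0.14 with DESeq2 and 0.089 with the 1-base shifted rows. Leaving out 1 library gave −0.60 to 9.70, the last because no 3p read was left in leptotene/zygotene, and it is no fold. let-7 was 0.021 (day 3 against day 1), −0.025 (day 7 against day 3) and −0.0033 (day 7 against day 1) with scaling without the 3 most abundant rows, and −0.20 for day 7 against day 1 with median-ratio factors and with DESeq2. The 5p share difference ranged from −0.493 to 1.47 points with 1 library left out.

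The number of small RNA rows called for day 3 against day 1 (0) was 23 with scaling without the 3 most abundant rows, 83 with DESeq2, 60 with no filter, 27 with the stages compared only, 131 in testis libraries only and 0 to 29 with 1 library left out. For day 7 against day 3 (31) it was 69 with median-ratio factors, 49 with plain library sizes, 108, 153, 56, 112 and 99 in the order of settings just given, and 6 to 85 with 1 library left out. For day 7 against day 1 (104) it was 159 with median-ratio factors, 205 with DESeq2, 307 with the stages compared only, 237 in testis libraries only and 0 to 180 with 1 library left out. For leptotene/zygotene against day 7 (463) it was 233 to 489 with 1 library left out, the lowest without the first leptotene/zygotene library. For pachytene against leptotene/zygotene (3) it was 27 with DESeq2, 14 with no filter, 0 with the stages compared only and 0 to 5 with 1 library left out. The genes called for day 7 against day 3 (252) numbered 1026 with DESeq2, 437 with no filter, 1019 with the stages compared only, 2126 in testis libraries only and 0 to 635 with 1 library left out.

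Among the genes, Cpsf6 for day 7 against day 3 was −0.059 with median-ratio factors, −0.011 with upper-quartile factors, −0.059 with DESeq2 and −0.19 to 0.017 with 1 library left out, Lrp6 ranged from −0.30 to 0.26, Eif2c1 was −0.012 with median-ratio factors and with DESeq2, and Espl1 for leptotene/zygotene against day 7 was −0.26 with plain library sizes. With 1 library left out, day 7 against day 3 ranged from −0.24 to 0.11 for Eif2c1, −0.21 to 2.27 for Eif2c2 and −0.14 to 0.26 for Tarbp2. The cause of these changes was not tested.

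The labels do not say that a replicate number marks a shared animal or batch. Deviations of same-numbered libraries correlated at −0.13 to 0.16 in small RNA and at −0.11 to 0.018 in RNA, except 0.64 between the leptotene/zygotene and pachytene RNA libraries. A replicate block gave 1.17 for miR-202-5p from day 3 to day 7, −3.56 from day 7 to leptotene/zygotene and 0.035 for miR-202-3p between the fractions. It changed no call of an arm or a named gene. The planned subtraction of other last-base variants of the let-7 seed could not be run, since those variants are not listed. Depth limits the 3p arm most, with at most 33 reads per spermatocyte library.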
